A study of Mus musculus with 20 samples.

Results

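The Aire knockout was studied in the NOD strain by setting 3 Aire knockout (KO) mice against 3 Aire wild-type (WT) mice, chosen by their sample titles from a series of 20 arrays. The NOD groups are male mice aged 3 to 4.5 weeks, labelled as NOD with Aire KO or as NOD with Aire WT, with no statement in the labels on how far the KO allele was backcrossed. The other 14 arrays hold 6 B6 and 8 BALB mice (3 KO and 3 WT, 4 KO and 4 WT) of the same sex, age range and sort. Each array holds the RNA of 1 thymus, from which medullary epithelial cells were sorted by 4 surface markers, as high for MHC class II, positive for the epithelial marker G8.8, intermediate for Ly51 and lacking CD45 of blood cells. The RNA was amplified in 2 rounds before it was hybridised to an Affymetrix mouse array. All 45037 probe sets other than the manufacturer's controls were compared.

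Aire is a transcriptional regulator of mature medullary thymic epithelial cells. In these cells it is known for promoting the low-level, patchy transcription of genes otherwise used in single peripheral organs, so that developing T cells meet the encoded proteins and those that react with them are removed or diverted. The NOD (non-obese diabetic) mouse develops autoimmune diabetes and salivary gland inflammation with an intact Aire gene, and in Aire-deficient NOD mice the attack is known to extend to organs such as the exocrine pancreas, lung, stomach, retina and thyroid.

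Levels are given as log2 of the deposited intensity and effects as KO minus WT differences of log2 intensity, so that an effect of -1 is a 2-fold fall. A gene was said to rise or fall where limma's test, fitted on all 20 arrays, gave a Benjamini-Hochberg adjusted p under 0.05 over all probe sets. Among the NOD arrays, median intensities lay between 89.3 and 90.9 and correlations between mice of 1 genotype between 0.978 and 0.991. The median SD between mice was 0.134 in KO and 0.132 in WT mice. The Aire probe set read 11.89, 12.04 and 11.80 in KO mice, against 11.45, 11.16 and 10.96 in WT mice. The difference of 0.72 ± 0.26 (SE) did not pass (limma, adjusted p = 0.171), and passed with the mice paired by number (adjusted p = 0.00755). Whether this probe set lies inside the deleted part of Aire is not stated in the labels. Its signal therefore tests no genotype, and KO means labelled KO throughout. H2-Ea, an MHC class II chain that is not transcribed in NOD and B6 mice, read 9.20 ± 0.16 in KO and 9.29 ± 0.11 in WT NOD mice (SD, n = 3 each), against 12.33 ± 0.16 and 11.87 ± 0.27 in BALB KO and WT mice (n = 4 each).

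Some blood cell genes did not read alike in every mouse. Ptprc, the gene of CD45, by which cells were excluded, read 8.49, 10.01 and 10.16 in KO mice, against 8.22, 10.86 and 11.08 in WT mice. It was low in mouse 1 of both genotypes and high in the other 4, and the genotypes overlapped (-0.50 ± 0.70, adjusted p = 0.870). The macrophage receptor Csf1r was likewise lowest in mouse 1 of both genotypes, at 9.07, 10.41 and 11.60 in KO mice and 9.79, 11.57 and 12.37 in WT mice. In the labels the sample codes of both mice numbered 1 lie in another run of numbers than those of the other 4. What a run of codes marks is not stated, and whatever it marks cannot be told apart from the number 1. Ptprc, Coro1a and Laptm5, 3 genes of all blood cells, summed to 7518 to 7847 in KO and 7770 to 9041 in WT mice. Together these 3 genes thus did not vary between mice as Ptprc did. Summed over 13 markers of dendritic cells and macrophages, intensity was 5380 to 13580 in KO and 5473 to 19454 in WT mice. Its range within each genotype was wider than the gap between them. Since sorted cells were pooled within a thymus, fewer cells of a type and less RNA per cell cannot be told apart in any value given here.

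In NOD mice labelled Aire KO, falls outnumbered rises and were much larger. Of 45037 probe sets 1903 passed, or 4.23% (limma, adjusted p under 0.05), and 6016 had an unadjusted p under 0.05. Of those that passed, 1264 (2.81%) were lower and 639 (1.42%) higher in KO mice. Among 954 that changed at least 2-fold, 746 were lower (1.66% of all) and 208 higher (0.462%), so that 78.2% of these larger changes were falls. At 4-fold the split was 247 lower to 10 higher, and at 8-fold 81 lower to 0 higher (0 higher also at an unadjusted p under 0.05). The KO and WT mice did not overlap in 98.4% of the probe sets that passed, against 24.4% of all probe sets. Over all probe sets those without overlap were more often higher in KO mice (6491, 14.4%) than lower (4511, 10%). A probe set that passes with 3 mice a side can hardly overlap, so the 98.4% is no separate support.

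The number of rises rested on single mice more than the number of falls. With each mouse left out in turn, between 646 and 849 probe sets fell at least 2-fold, and between 119 and 346 rose at least 2-fold. The extremes came without WT mouse 3, at 646 falls and 119 rises, and without WT mouse 1, at 849 and 346. Rises of at least 2-fold numbered 134 without WT mouse 2, 133 without KO mouse 1, 157 without KO mouse 2 and 247 without KO mouse 3. The total of 1903 became 1180 without WT mouse 2, 1209 without WT mouse 3 and 1267 without KO mouse 1. Mice of the same number deviated together from their group means (r = 0.670, 0.314 and 0.613 across probe sets), and with the mice so paired 2974 probe sets passed, 1861 lower and 1113 higher, which held 1874 of the 1903. Counted per gene, at 1 probe set each, 1197 of 18193 passed (6.58%), of which 855 fell (4.7%) and 342 rose (1.88%), 497 (2.73%) and 126 (0.693%) of them at least 2-fold.

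**Figure D1:**
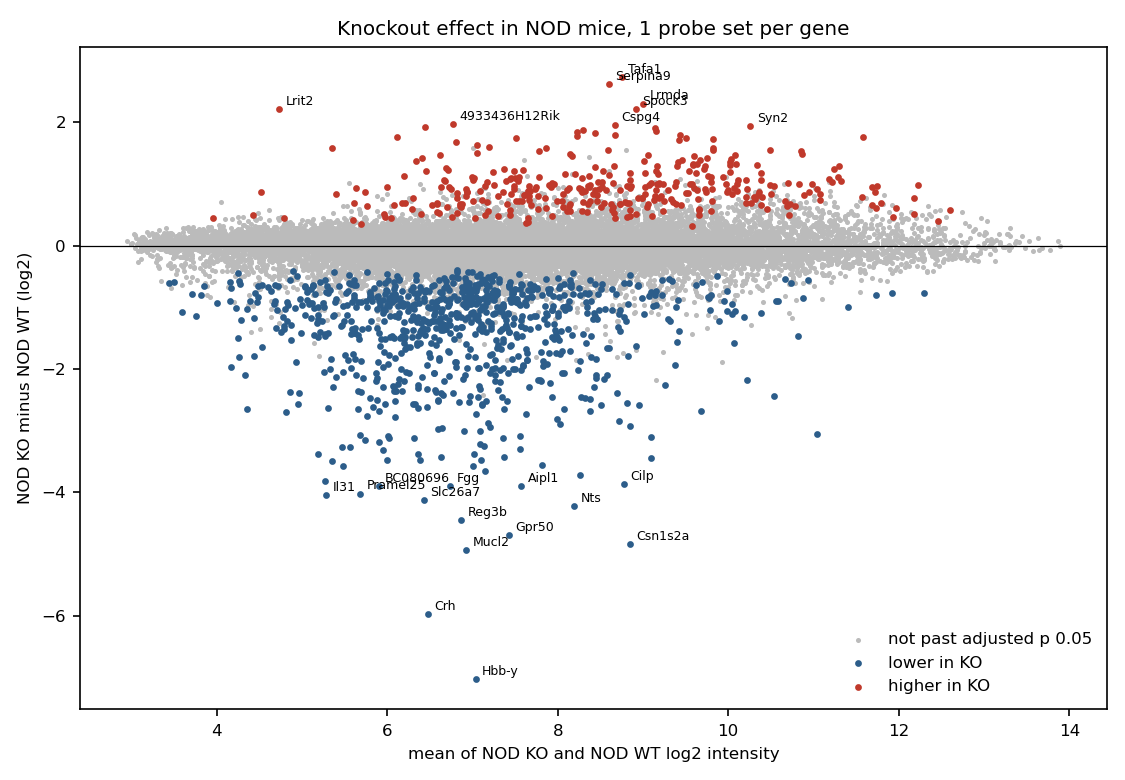
NOD effect (KO minus WT log2 intensity, vertical axis) against mean log2 intensity over the 6 NOD arrays (horizontal axis), 1 point per gene, with the 14 largest falls and 8 largest rises named. Falls reach -7.03 at Hbb-y while rises end at 2.73 with Tafa1.

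The largest falls were those of genes of different organs. Hbb-y, a globin of the early embryo, read 3.59, 3.54 and 3.46 in KO mice, against 9.98, 10.74 and 10.94 in WT mice. This fall of 7.03 ± 0.36 (SE) on the log2 scale was 130-fold (limma, adjusted p = 3.11e-09), and the KO mice were under 3.77, the lowest 5% of all values. Its other probe sets read -7.16 and -1.79. Crh, the hypothalamic hormone that starts the stress response, read 3.42, 3.57 and 3.48 in KO mice and 8.98, 9.75 and 9.68 in WT mice (-5.98 ± 0.35, 63.0-fold lower). For both genes the 3 KO mice sat at the floor of the scale and the 3 WT mice were among the brighter probe sets, so the folds would be understated if background remains in the values.

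Mucl2, a secreted salivary protein, read 4.18, 4.32 and 4.87 in KO mice and 8.78, 9.61 and 9.79 in WT mice (-4.94 ± 0.43). Csn1s2a, a milk casein, read 6.94, 5.59 and 6.74 in KO mice and 11.36, 11.21 and 11.21 in WT mice (-4.83 ± 0.35). Gpr50, a receptor related to the melatonin receptors, read 5.13, 5.17 and 4.93 in KO mice and 9.33, 9.77 and 10.22 in WT mice (-4.70 ± 0.25). In each of these genes the gap between the genotypes was several times the spread within either. Reg3b, an antimicrobial lectin of gut and pancreas, read 4.75, 4.39 and 4.79 in KO mice and 8.44, 8.96 and 9.88 in WT mice (-4.45 ± 0.40). Nts, the gut and brain peptide neurotensin, read 5.39, 6.41 and 6.44 in KO mice and 10.30, 10.35 and 10.27 in WT mice (-4.23 ± 0.23). Its 3 WT mice were nearly equal, and KO mouse 1 was lowest.

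The remaining falls of the 14 were the anion transporter Slc26a7 (-4.13), the itch-associated cytokine Il31 (-4.04), the PRAME family member Pramel25 (-4.02), the photoreceptor chaperone Aipl1 (-3.90), the fibrinogen chain Fgg (-3.89), BC080696 (-3.89) and the cartilage matrix protein Cilp (-3.86). None of the 14 calls was lost when any 1 mouse was left out or under any other alternative tried, except that Il31 and BC080696 are too dim to enter the fit without dim probe sets. Other probe sets of the same gene did not always follow: they read -0.15 for Slc26a7, -0.25 for Gpr50, -0.36 for Aipl1, -2.08 for Reg3b, and -4.60, 0.11, -0.29 and -0.16 for Csn1s2a. A gene's value therefore depends on the probe set, and the one with the highest mean over all arrays was used.

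**Figure D2:**
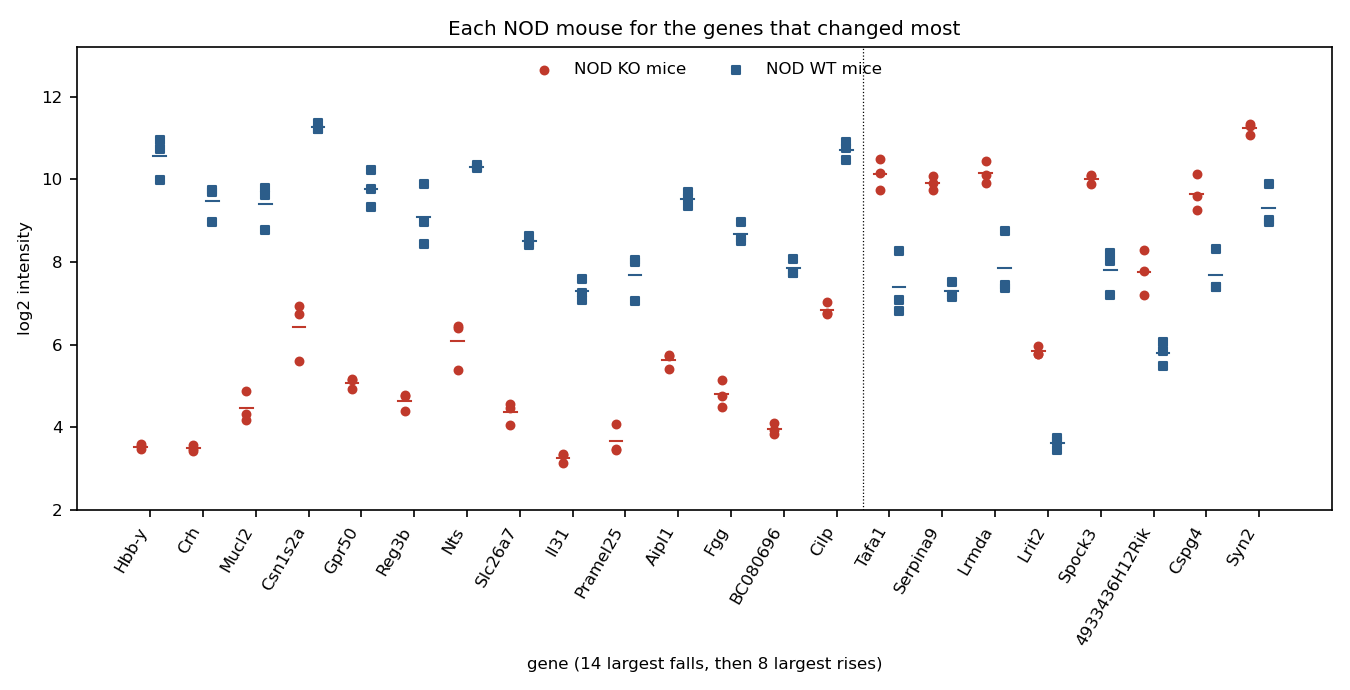
Log2 intensity in 3 KO and 3 WT NOD mice, 1 point per mouse, of the 14 genes that fell most and the 8 that rose most. The genes were chosen among those without overlap between the genotypes, and the gap is widest in Hbb-y, with KO mice from 3.46 to 3.59 and WT mice from 9.98 to 10.94.

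The promoters of the genes that fell were compared with those of all measured genes, using RefSeq promoter sequences of GRCm38.p6. The letters TATAAA, the core of the TATA box that positions RNA polymerase II, were searched in the 250 bases before each start. Of the 497 genes that fell at least 2-fold 398 had a promoter in the table, with 448 start windows, as had 92 of the 126 that rose at least 2-fold (124 windows) and 14452 of all 18193 measured (18109 windows). Between 45 and 16 bases before the start, where a TATA box usually lies, the letters stood on the gene's strand in 12.7% of the windows of genes that fell, 4.03% of those that rose and 2.32% of all. On either strand and anywhere in the 250 bases the shares were 23.9%, 9.68% and 8.81%. The median number of CG dinucleotides was 3 in windows of genes that fell, 7.5 in those that rose and 12 in all. A match is a run of letters and not a tested site.

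The 100 bases before the start are shown for 3 secreted lectins of the Reg family, which lie close together on chromosome 6 and all fell (Reg3b -4.45, Reg1 -2.53, Reg3a -2.25), and for glucagon, Gcg, which did not pass in NOD mice (0.05) and fell in both other strains. Capitals mark TATAAA on the gene's strand. It starts 29 bases before the start of Reg3b (chr6:78370785-78370884, plus strand), 30 before that of Reg1 (chr6:78425883-78425982, plus strand) and 24 before that of Gcg (chr2:62483654-62483753, minus strand), and is not in the window of Reg3a (chr6:78380609-78380708, plus strand).
Reg3b: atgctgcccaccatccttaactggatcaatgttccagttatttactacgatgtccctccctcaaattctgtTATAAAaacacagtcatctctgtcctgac
Reg1: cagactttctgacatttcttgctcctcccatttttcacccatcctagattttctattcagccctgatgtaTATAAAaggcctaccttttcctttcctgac
Reg3a: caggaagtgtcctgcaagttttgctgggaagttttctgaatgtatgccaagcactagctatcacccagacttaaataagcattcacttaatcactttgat
Gcg: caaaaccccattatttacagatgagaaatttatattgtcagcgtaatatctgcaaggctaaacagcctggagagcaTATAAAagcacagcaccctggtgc
The letters were thus present in genes with and without a fall, and absent from the window of Reg3a, which fell 4.76-fold. They were also absent from the 100 bases before the starts of the fibrinogen genes Fgg (-3.89) and Fgb (-2.77), which are not shown.

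Genes that fell also tended to adjoin each other. Of 494 genes placed on the assembly's gene order among those that fell at least 2-fold, 101 (20.4%) had a neighbouring measured gene that fell as much, against 943 of all 18145 placed genes (5.2%). Among the 126 that rose at least 2-fold, 20 (15.9%) adjoined another such gene, against 1.38% of all. Runs of 3 or more included the fibrinogen genes Fgg, Fga and Fgb, the interferon-induced Ifit2, Ifit3 and Ifit1bl1, the keratins Krt1, Krt77, Krt76 and Krt4, and a run of the epidermal genes S100a9, S100a7l2, Lor and Prr9. Many of these neighbours are relatives with similar sequences, which can share probe signal, and their part in the count was not tested.

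Rises were smaller, and some rested on single mice. Tafa1, a secreted neuronal protein, read 10.48, 10.14 and 9.74 in KO mice, against 8.27, 7.07 and 6.82 in WT mice (2.73 ± 0.27, 6.64-fold higher). Serpina9, a protease inhibitor known from germinal centre B cells, read 9.73, 10.08 and 9.90 in KO mice and 7.52, 7.14 and 7.20 in WT mice (2.62 ± 0.23). The genotypes were well apart in both, although WT mouse 1 was higher than the other WT mice. Lrmda, a gene of melanocyte differentiation, read 10.44, 10.11 and 9.92 in KO mice and 8.74, 7.37 and 7.44 in WT mice (2.30 ± 0.56, limma, adjusted p = 0.0229). Its call was lost without WT mouse 2, WT mouse 3, KO mouse 1 or KO mouse 2, and its other probe sets read 0.14 and -0.22.

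The leucine-rich repeat gene Lrit2 rose by 2.22 at a low level, at 5.78, 5.77 and 5.97 in KO mice against 3.75, 3.45 and 3.67 in WT mice. The proteoglycan genes Spock3 (2.21) and Cspg4 (1.96), the unnamed 4933436H12Rik (1.97) and the synaptic vesicle gene Syn2 (1.94) completed the 8 largest rises. The call of Spock3 was lost without WT mouse 3, and its other probe set read 0.08.

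Across 20 lists of genes typical of single organs, 94 of 283 measured genes fell in NOD KO mice (33.2%) and 5 rose (1.77%), with a median effect of -0.36. At an unadjusted p under 0.05 the numbers were 141 and 11. Over all 18193 genes 4.7% fell and 1.88% rose, with a median of 0.0046. The lists differed widely, from 13 of 23 intestine genes to 1 of 13 kidney genes.

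Among antigens targeted in type 1 diabetes, the disease to which NOD mice are prone, 3 of 14 measured genes fell and 2 rose (list median -0.29). The islet peptide Iapp, which is co-secreted with insulin, fell most, at 9.42, 10.10 and 9.03 in KO mice and 12.44, 12.79 and 12.48 in WT mice (-3.05 ± 0.40). Other probe sets of Iapp read -3.23, -2.76 and -1.50. Ins2, the insulin gene known to be expressed in thymus, read 7.10, 6.71 and 6.87 in KO mice and 7.37, 7.61 and 7.87 in WT mice. Its fall of 0.72 ± 0.19 was 1.65-fold (adjusted p = 0.0304), with all 3 KO mice below all WT mice, but the call was lost without WT mouse 2, WT mouse 3, KO mouse 2 or KO mouse 3. The neuronal filament Prph fell by 1.12 (adjusted p = 0.0352), a call lost without any 1 of the 6 mice, and its other probe sets read 0.02, 0.27 and 0.25.

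Chga, a granule protein of islet and neuroendocrine cells, was higher (0.47), as was the tyrosine phosphatase-like Ptprn2 (0.69). Both calls were lost with a trend and robust variance, on the 6 NOD arrays alone and in several fits that left out 1 mouse, the list's rises becoming 0 without WT mouse 2, WT mouse 3, KO mouse 1 or KO mouse 2 and 1 without KO mouse 3, and its falls 1 without WT mouse 2, WT mouse 3, KO mouse 2 or KO mouse 3. With the mice paired 4 members fell and 1 rose, since Slc30a8, the zinc transporter ZnT8, passed (adjusted p = 0.0464) and Chga did not (0.0583). The glutamate decarboxylases, targets of the disease's autoantibodies, did not pass: Gad1 read -0.58 (adjusted p = 0.301) and Gad2 0.21 (0.554).

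Hormones of the islet fell in 5 of 7 members. Ppy, pancreatic polypeptide, read 5.06, 5.74 and 5.24 in KO mice and 7.58, 7.70 and 8.29 in WT mice (-2.51 ± 0.26), and the related peptide Pyy fell by 2.0. Somatostatin, Sst, fell by 0.72. Glucagon, Gcg, read 8.0, 8.5 and 7.8 in KO mice and 8.1, 8.0 and 8.1 in WT mice (0.05 ± 0.27), with full overlap, and ghrelin, Ghrl, read 0.06. The 5 falls became 3 without WT mouse 2, WT mouse 3 or KO mouse 3.

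In the exocrine pancreas, which makes digestive enzymes, 8 of 23 genes fell and 0 rose (median -0.57). After Reg3b came Spink1, the trypsin inhibitor of the gland, at 6.55, 6.35 and 6.86 in KO mice and 8.91, 9.28 and 10.00 in WT mice (-2.81 ± 0.31). Reg1 fell by 2.53 and Reg3a by 2.25, followed by the zymogen membrane protein Gp2 (-1.84), Reg3g, Cela1 and Pnliprp1. The members that fell were thus led by lectins and an inhibitor, and many of the enzymes did not pass, such as the trypsin Prss2 (-1.86, adjusted p = 0.0692, and 0.0247 with the mice paired), Ctrb1 (-0.99) and Cpa1 (0.17). Pdia2, a pancreatic protein known as an autoantigen in Aire-deficient NOD mice, read 0.03 ± 0.16. The 8 falls became 5 without WT mouse 3 or KO mouse 2.

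Of 19 salivary and lacrimal gland genes 9 fell and 0 rose (median -0.96), and 12 fell with the mice paired. Behind Mucl2 stood the kallikrein Klk1b5 (-2.63), whose close relatives can share probes, the secreted Prol1 (-2.56) and the odorant binding protein Obp2a (-2.36), listed under its older symbol Lcn13. Obp2a read 4.87, 4.90 and 4.94 in KO mice and 7.31, 7.34 and 7.14 in WT mice. Obp1a, an antigen of lacrimal gland disease in Aire-deficient NOD mice, read 3.75, 4.06 and 3.85 in KO mice and 4.90, 5.49 and 4.15 in WT mice. Its difference of -0.96 ± 0.34 did not pass (adjusted p = 0.153), and passed with the mice paired (0.0402).

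Falls were frequent among genes of the digestive tract. In the intestine 13 of 23 genes fell, all at least 2-fold, and 0 rose (median -1.44). Reg4, a lectin of secretory cells, read 5.43, 5.33 and 5.19 in KO mice and 9.6, 9.0 and 8.3 in WT mice (-3.65 ± 0.27), while Fabp2, the enterocyte fatty acid binding protein (-3.22), and Zg16, a goblet cell lectin (-2.74), followed. Absorptive proteins (Apob -2.59, Fabp1 -2.46), secretory proteins (Tff3 -2.18, Clca1 -2.05, Muc2 -1.44) and hormones (Cck -2.17, Gip -2.07) were all among them. In the stomach, a target of autoimmunity in Aire-deficient NOD mice, 7 of 15 genes fell, led by the pepsinogen Pga5 (-1.94) and the gastrokines Gkn2 (-1.61) and Gkn1 (-1.50), with the acid chitinase Chia1 at -0.82. The 7 became 4 without WT mouse 1, WT mouse 2, WT mouse 3 or KO mouse 1, or without both mice numbered 1.

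Liver genes fell in 10 of 24 members, with a median of -0.95. The fibrinogen chains Fgg and Fgb (-2.77), the plasma protein Itih3 (-3.37) and the lipoprotein Apoa1 (-2.65) led, and Itih3 read 5.34, 5.30 and 5.36 in KO mice against 9.05, 8.50 and 8.56 in WT mice. Of the cytochromes P450 on the list, Cyp1a2 (-2.06), Cyp3a11 (-1.78) and Cyp2e1 (-0.53) fell, and Cyp7a1 read -0.03. Ddc, the decarboxylase that makes dopamine and serotonin, rose by 0.91, a call lost without WT mouse 2, WT mouse 3, KO mouse 1 or KO mouse 2.

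In the lung and airway list 7 of 12 genes fell and 1 rose (median -0.73). Bpifa1, a protein of the airway surface, read 4.89, 7.90 and 9.33 in KO mice and 10.57, 10.65 and 11.24 in WT mice. The KO mice were spread widely, with KO mouse 1 far below the others, and the genotypes did not overlap. The fall of 3.45 ± 0.77 (adjusted p = 0.0119) was lost without WT mouse 3 and without both mice numbered 1. Its relative Bpifb1, a lung autoantigen in Aire-deficient mice, read 6.5, 6.7 and 6.2 in KO mice and 6.65, 6.66 and 7.25 in WT mice (-0.39 ± 0.26, adjusted p = 0.613), with overlap. Scgb1a1 of club cells (-1.52) and 2 surfactant genes, Sftpc (-1.41) and Sftpa1 (-1.23), also fell, but other probe sets of the surfactant genes read 0.08 and -0.23, and the call of Scgb1a1 was lost without WT mouse 2, WT mouse 3 or KO mouse 2 and that of Sftpa1 without any 1 mouse. Ager, a receptor of flat alveolar cells, rose by 0.92 and passed in every fit tried, at 0.83 to 0.99. Its other probe set rose by 0.47. The 7 falls became 2 without WT mouse 3 and 4 without KO mouse 2 or without both mice numbered 1.

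Of 21 neuropeptide genes 11 fell and 0 rose (median -0.72). Crh and Nts were followed by Tac1, the precursor of substance P, at 7.39, 7.66 and 7.56 in KO mice and 10.22, 10.86 and 10.85 in WT mice (-3.11 ± 0.27), although its other probe set read 0.12. Vip, a vasodilating gut and nerve peptide, fell by 2.64 and Cck by 2.17. Among genes of the pituitary, parathyroid and steroid glands 3 of 14 fell, namely the pituitary subunit Cga (-2.15), parathyroid hormone, Pth (-1.88), and the corticotropin precursor Pomc (-1.86).

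Milk protein genes fell in 3 of 10 members and in 5 with the mice paired. Csn3 read 7.67, 7.55 and 7.75 in KO mice and 9.02, 9.22 and 9.12 in WT mice (-1.46 ± 0.24), with another probe set at -0.01, and Csn1s1 fell by 1.39, a call lost without KO mouse 1. Csn2, a major milk casein, read 13.56, 13.78 and 13.73 in KO mice and 13.53, 13.58 and 13.60 in WT mice. It was near the top of the scale in both genotypes, which overlapped (0.12 ± 0.08, adjusted p = 0.611). Of 6 globin and red cell genes 3 fell, the embryonic Hbb-y and Hba-x (-1.48) and the anion exchanger Slc4a1 (-0.54, lost without WT mouse 2, WT mouse 3 or KO mouse 1).

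Striated muscle genes fell in 6 of 18 members, led by the developmental myosins Myh3 (-3.43) and Myh8 (-2.39), the cardiac actin Actc1 (-1.98) and the acetylcholine receptor subunit Chrna1 (-1.10), the target of antibodies in myasthenia gravis. Desmin, Des, rose by 0.68, and 2 members rose without WT mouse 1. In the cornifying epidermis 4 of 14 fell: the protease Klk5 (-2.07), loricrin, Lor (-1.93, with other probe sets at -1.57 and 0.08), Lce3a (-1.36) and the keratin Krt1 (-1.21). The call of Krt1 was lost without any 1 mouse, and that of Lor without WT mouse 2, WT mouse 3 or KO mouse 1 and on the 6 NOD arrays alone, so that the 4 became 2 without each of these 3 mice.

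Some organs targeted in Aire-deficient NOD mice contributed few genes, though at shares above the 4.7% of all genes that fell. These were 12.5% of the retina list, 20% of the thyroid list and 22.2% of the prostate and seminal vesicle list. In lists of 16, 5 and 9 genes, 1 fall already exceeds 4.7%, so these shares say little. In the retina 2 of 16 fell, the retinoid carrier Rlbp1 (-2.76) and the calcium sensor Rcvrn (-1.0). Rbp3, a retinal autoantigen also called IRBP, read 6.69, 6.88 and 6.57 in KO mice and 6.81, 6.73 and 6.69 in WT mice (-0.03 ± 0.10, adjusted p = 0.958), at a level close to the median of all WT values, 6.51. In the thyroid 1 of 5 fell, the iodide-recycling enzyme Iyd (-1.38), while thyroglobulin, Tg, read 7.0, 7.1 and 6.9 in KO mice and 6.6, 6.6 and 6.9 in WT mice (0.33 ± 0.21, adjusted p = 0.561). Prostate and seminal vesicle genes fell in 2 of 9 members, Svs4 (-3.32) and Pate4 (-1.14), and became 1 without WT mouse 2, WT mouse 3, KO mouse 1 or KO mouse 2. Svs2, a seminal vesicle autoantigen, read 0.17 ± 0.10 (adjusted p = 0.537), and another of its probe sets read -1.11.

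Of 21 germ cell genes 3 fell, the helicase Ddx4 (-3.26), the egg coat protein Zp3 (-1.59) and the sperm enzyme Ldhc (-1.16), where 4.7% of all genes fell. In the kidney 1 of 13 fell, uromodulin, Umod (-1.73), a count that became 0 without WT mouse 2, WT mouse 3, KO mouse 1 or KO mouse 2. In nerve and myelin 1 of 11 fell, Prph, and 0 without any 1 mouse. Fodrin, Sptan1, a ubiquitous protein proposed as a salivary autoantigen, read -0.30 ± 0.29 (adjusted p = 0.780). Under the median of all probe sets in both genotypes lay 15 of 21 germ cell genes, 8 of 9 prostate and seminal vesicle genes and 8 of 16 retina genes, against 31.0% of all 18193 genes.

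**Figure D3:**
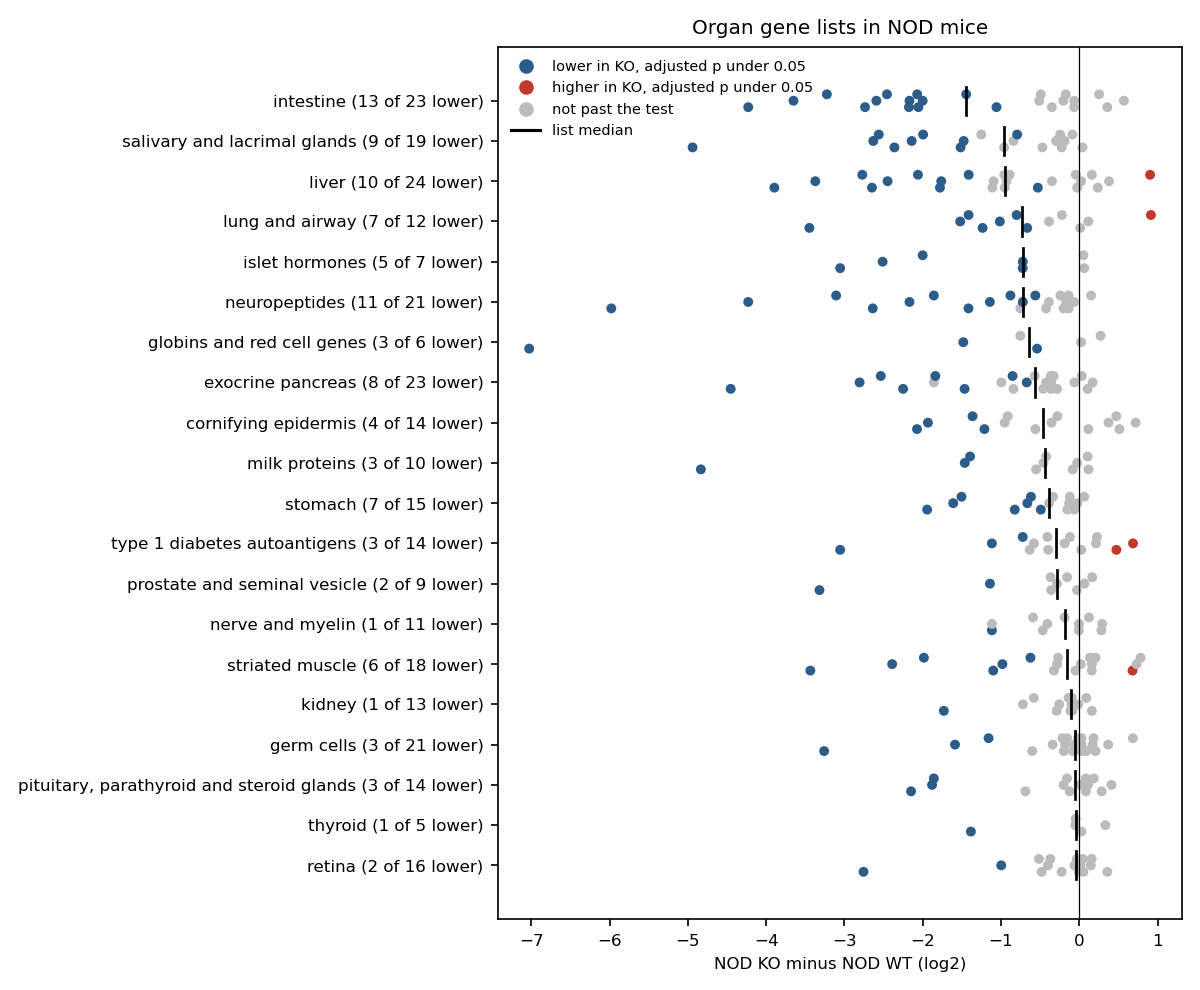
NOD effect (KO minus WT log2 intensity) of every measured member of the 20 organ lists, 1 point per gene, with blue for genes that fell, red for genes that rose and grey for the rest, and a black bar at each list's median. Medians run from -1.44 in the intestine to -0.05 in the thyroid and retina, and single genes lie far to the left in most lists.

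Genes that medullary epithelial cells use to present antigen were high in both genotypes, and few passed. Over all genes 4.7% fell and 1.88% rose. Of 12 MHC class II genes 1 rose, H2-Ob, a subunit of the peptide-loading modulator H2-O, at 12.12, 11.98 and 12.01 in KO mice and 11.71, 11.30 and 11.28 in WT mice (0.61 ± 0.12, adjusted p = 0.00428). The class II chains themselves did not pass, H2-Aa at 0.16 and H2-Ab1 at 0.29, while the summed intensity of the list ran from 59374 to 63168 in KO and from 51445 to 54069 in WT mice without overlap. Of 13 MHC class I genes 0 passed (limma, median -0.05), and 0 had an unadjusted p under 0.05.

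Among 14 costimulatory and checkpoint genes 1 rose, Cd70, a ligand that supports regulatory T cells in the thymic medulla. It read 10.70, 10.77 and 10.76 in KO mice and 10.05, 9.45 and 9.56 in WT mice (1.06 ± 0.24, adjusted p = 0.0137). The call was lost without WT mouse 2, WT mouse 3 or KO mouse 2. With the mice paired, and also without KO mouse 3, 2 members rose, and in the paired fit the second was the 4-1BB ligand Tnfsf9. Cd80, a main ligand of CD28, read 0.72 (adjusted p = 0.523).

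Of 17 measured genes induced by interferon 8 fell in NOD KO mice and 0 rose (median -0.81), where 4.7% of all genes fell. The effects of the other 9, which did not pass, were also below 0. Ifit2, an antiviral RNA-binding protein, read 5.87, 6.22 and 6.36 in KO mice and 8.33, 8.88 and 8.77 in WT mice (-2.51 ± 0.33). Rsad2, the antiviral enzyme viperin, read 8.88, 9.31 and 9.17 in KO mice and 10.73, 11.75 and 11.44 in WT mice (-2.18 ± 0.28). Ifit3 fell by 2.47 and the guanylate binding protein Gbp3 by 1.56. The genotypes did not overlap in any of the 8. This is no separate support, since 98.4% of all probe sets that passed did not overlap. With the mice paired 11 fell, with Oas2, Oasl2 and Gbp2 added. Summed, the list ran from 11186 to 13658 in KO and from 18951 to 21066 in WT mice. KO and WT mouse 1 were lowest in Ifit3 (6.23 and 8.76), as in Ptprc. The differences within the 3 pairs lay between -2.27 and -2.62 for Ifit3 and between -1.32 and -1.92 for Gbp3. The part of blood cells in these falls was not tested.

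Other functions of the epithelium passed in few members, where 4.7% of all genes fell and 1.88% rose. Of 12 chemokines 1 fell, Cxcl9, an interferon-induced attractant of T cells (-0.79), a call lost in every fit that left out 1 mouse except that without KO mouse 3. Of 17 cell cycle genes 0 passed (limma), with a median of -0.54 and 5 lower at an unadjusted p under 0.05, and 4 fell with the mice paired, Mki67, Top2a, Ccna2 and Birc5. Their summed intensity ran from 8075 to 9840 in KO mice and from 11324 to 13407 in WT mice. None of 14 genes of RANK and NF-kB signalling and none of 19 known Aire partners passed in the unpaired or the paired fit (limma). At an unadjusted p under 0.05, 1 RANK and NF-kB gene was higher, and 3 partners were lower and 1 higher. Median effects were 0.14 and -0.05.

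With 4.7% of all genes lower and 1.88% higher, lists of 8 to 13 genes often hold no call. Markers of the sorted cells did not pass (limma). None of 13 genes of mature medullary epithelium did, from Krt5 (-0.72) to Cd80 (0.72), and their sum ran from 33324 to 36778 in KO and from 35314 to 36181 in WT mice. Nor did any of 9 cortical epithelial markers (sums of 7620 to 10969 in KO, 8061 to 11544 in WT mice) or 8 tuft cell markers (1249 to 1416 in KO, 1367 to 1511 in WT mice). At an unadjusted p under 0.05, 1 medullary, 0 cortical and 1 tuft cell marker were lower and 0, 1 and 0 higher, and 1 cortical marker fell without KO mouse 3. Psmb11, the cortical proteasome subunit, read 6.20, 6.31 and 7.41 in KO and 6.17, 6.82 and 7.13 in WT mice. Among thymocyte markers 1 of 11 fell, Cd3g (-1.07), and 3 with the mice paired, adding Cd4 and Dntt. Without WT mouse 1 the count was also 3, and without KO mouse 3 it was 2. Cd3e of the same receptor read -0.18 (adjusted p = 0.698), and sums ran from 1222 to 2370 in KO and from 1539 to 3462 in WT mice.

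In the B cell list 1 of 6 rose, the complement receptor Cr2 (1.58 ± 0.28), where 4.7% of all genes fell and 1.88% rose. Cr2 read 10.86, 10.69 and 10.28 in KO mice and 9.55, 9.07 and 8.47 in WT mice. The B cell list, Cr2 included, summed to 2479 to 2851 in KO and 1790 to 1978 in WT mice. With the mice paired Ms4a1, the CD20 gene, fell, so the list did not move together. Cd14, a receptor for bacterial lipopolysaccharide, fell by 1.54 as 1 of 13 dendritic cell and macrophage markers, and the macrophage gene Adgre1 also fell with the mice paired. Of 8 endothelial markers Cd34 (-2.31) and Vwf (-1.34) fell, with 1 marker higher without KO mouse 3. The endothelial list summed to 758 to 835 in KO and 898 to 1096 in WT mice. Of 8 fibroblast markers the collagens Col1a1 (-0.83) and Col1a2 (-0.80) fell while decorin, Dcn, rose (0.85). Fibroblast sums overlapped, at 1916 to 2196 in KO and 1798 to 2094 in WT mice. The call of Dcn was lost without WT mouse 2, WT mouse 3, KO mouse 1 or KO mouse 2, and that of Col1a2 without WT mouse 2 or KO mouse 1. Of 14 genes of the stress of cell dissociation 0 passed (sums of 29591 to 37223 in KO and 28744 to 37850 in WT mice), while 2 were lower at an unadjusted p under 0.05 and 1 fell without WT mouse 1. In the paired fit Ier3 and Nr4a1 fell. The part of these cell markers in the gene falls and rises was not tested.

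The NOD falls were set beside those of the other strains, which share no array with NOD. Of the 497 genes that fell at least 2-fold in NOD KO mice, 428 also did in B6 (86.1% of the NOD genes and 46.7% of the 916 of B6) and 348 in BALB (70.0% of the NOD genes and 60.2% of the 578 of BALB). Over all 18193 genes 916 fell as much in B6 and 578 in BALB, and 336 did in all 3 strains. Of the 126 that rose at least 2-fold in NOD, 66 did in B6 (52.4%, and 34.7% of 190) and 45 in BALB (35.7%, and 46.9% of 96). In 17 of the 497 the effect was above 0 in B6 or in BALB. In either direction and at any fold, 6.58% passed per gene in NOD, 12.5% in B6 and 10.4% in BALB. Per probe set the shares were 4.23%, 8.62% and 6.84%, and the same residual spread was used for all 3.

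Tested as a difference, the NOD effect departed from the mean of the B6 and BALB effects in 66 of 45037 probe sets, or 0.147% (limma, adjusted p under 0.05), and in 136 with the mice paired. It was more negative in 32 (0.0711%) and more positive in 34 (0.0755%), and 1832 probe sets had an unadjusted p under 0.05. At 1 probe set per gene these were 42 genes (0.231%), 22 with a more negative effect in NOD (0.121%) and 20 with a more positive one (0.11%). Leaving out single NOD mice reduced the 66 probe sets to between 23 and 51: 51 without WT mouse 1, 23 without WT mouse 2, 28 without WT mouse 3, 35 without KO mouse 1, 24 without KO mouse 2 and 40 without KO mouse 3. Numbered in order, the runs of sample codes were 2 and 4 in NOD, 2 and 3 in B6, and 1 and 2 in BALB. B6 WT mouse 1 has no code. The Gapdh control, 3' end minus 5' end in log2, ran from 2.15 to 2.49 in NOD, 1.68 to 3.76 in B6 and 2.24 to 3.04 in BALB. The part of either in the strain differences was not tested.

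**Figure D4:**
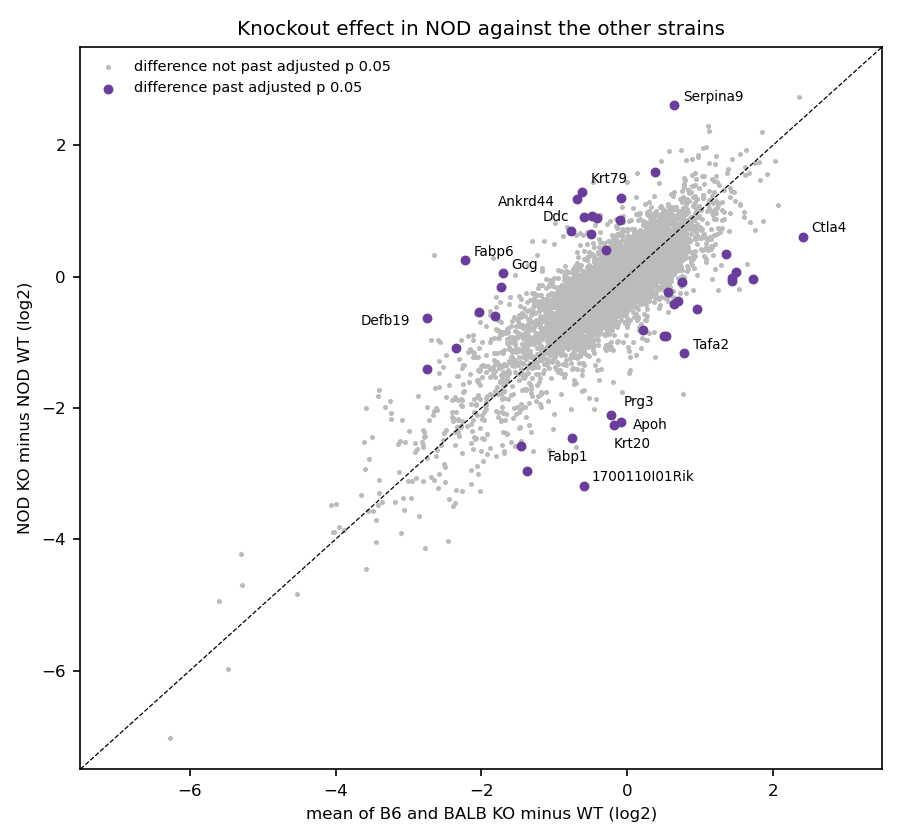
NOD effect (vertical axis) against the mean of the B6 and BALB effects (horizontal axis), both KO minus WT log2 intensity, 1 point per gene, with the diagonal of equal effects dashed and the 42 genes whose difference passed in purple. Hbb-y and Crh lie far down near the diagonal, while Apoh (-2.22 in NOD) and Prg3 (-2.10) lie low and near the horizontal zero, and Fabp6 (0.25) and Gcg (0.05) near the vertical zero.

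Several genes fell more in NOD than in the other strains. The unnamed 1700110I01Rik had an effect of -3.18 in NOD, against -0.94 in B6 and -0.25 in BALB, a difference of -2.59 ± 0.28 (adjusted p = 0.00135). Apoh, a lipid-binding plasma glycoprotein of the liver, averaged 6.80 ± 0.06 in KO and 9.02 ± 0.50 in WT NOD mice (SD, n = 3 each), against 7.87 ± 0.04 and 7.83 ± 0.07 in B6 and 7.95 ± 0.24 and 8.15 ± 0.34 in BALB. Its NOD WT level lay above, and its NOD KO level below, both levels of the other strains (difference -2.14 ± 0.25, adjusted p = 0.00145), and its other probe set read 0.12 in NOD. Prg3, an eosinophil granule protein, had effects of -2.10 in NOD, 0.02 in B6 and -0.44 in BALB (difference -1.89 ± 0.24, adjusted p = 0.00286). The differences of these 3 genes passed in every fit tried.

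Krt20, a keratin of gut and urinary lining, had effects of -2.26 in NOD, -0.70 in B6 and 0.34 in BALB (difference -2.08 ± 0.34, adjusted p = 0.0159), lost without WT mouse 1, WT mouse 2, KO mouse 2 or KO mouse 3. Tafa2, a relative of Tafa1, read -1.16 in NOD, 1.24 in B6 and 0.34 in BALB (difference -1.95 ± 0.35, adjusted p = 0.0283), lost without any 1 mouse. Fabp1, the fatty acid binding protein of liver and gut, read -2.46 in NOD, -1.66 in B6 and 0.16 in BALB (difference -1.71 ± 0.33, adjusted p = 0.0476), lost without any 1 mouse and also with the arrays centred on their medians (0.0575). The difference of its other probe set was -1.67 and did not pass (limma, adjusted p = 0.271). Ctla4, the T cell inhibitory receptor, differed because it rose in the other strains: it averaged 7.31 ± 0.34 in KO and 6.70 ± 0.28 in WT NOD mice, against 10.53 ± 0.31 and 7.75 ± 0.31 in B6 and 9.01 ± 0.13 and 6.97 ± 0.15 in BALB. The NOD effect of 0.61 did not pass, against 2.79 and 2.04 (difference -1.80 ± 0.24, adjusted p = 0.00313, past the threshold in every fit tried).

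In the other direction, a few organ genes that fell in B6 and BALB did not pass in NOD. Fabp6, the bile acid binding protein of the ileum, averaged 10.89 ± 0.15 in KO and 10.64 ± 0.11 in WT NOD mice, against 7.19 ± 0.84 and 9.79 ± 0.84 in B6 and 8.11 ± 0.23 and 9.95 ± 0.32 in BALB. The difference of 2.47 ± 0.44 passed (adjusted p = 0.0262), but not with the mice paired (0.0550) and not without any 1 NOD mouse. Gcg averaged 8.09 ± 0.36 in KO and 8.04 ± 0.03 in WT NOD mice, against 6.49 ± 0.13 and 8.15 ± 0.28 in B6 and 6.05 ± 0.65 and 7.81 ± 0.10 in BALB (difference 1.76 ± 0.32, adjusted p = 0.0298). Its call was lost without WT mouse 1, WT mouse 2, WT mouse 3, KO mouse 1 or KO mouse 2. Defb19, a defensin of the male tract, was dim already in NOD WT mice, at 5.07 ± 0.17 against 7.19 ± 0.71 in B6 and 7.04 ± 0.57 in BALB WT mice (difference of effects 2.11 ± 0.39, adjusted p = 0.0354, lost without any 1 mouse).

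Other genes had a more positive effect in NOD than in the other strains by the test of the difference. Serpina9 had effects of 2.62 in NOD, 0.78 in B6 and 0.52 in BALB (difference 1.96 ± 0.27, adjusted p = 0.00425, past the threshold in every fit tried). Krt79, a keratin of the hair follicle duct and sebaceous gland, averaged 11.95 ± 0.12 in KO and 10.65 ± 0.15 in WT NOD mice, against 10.60 ± 0.21 and 11.21 ± 0.36 in B6 and 10.91 ± 0.39 and 11.53 ± 0.42 in BALB. Its difference of 1.91 ± 0.29 (adjusted p = 0.00887) was lost only without both mice numbered 1. Ankrd44 had effects of 1.18 in NOD, -1.03 in B6 and -0.34 in BALB (difference 1.86 ± 0.33, adjusted p = 0.0269), lost without WT mouse 1, WT mouse 3, KO mouse 1 or KO mouse 2. The differences of its other probe sets were 0.17, 0.17 and 0.45 and did not pass. Ddc had effects of 0.91 in NOD, -0.46 in B6 and -0.72 in BALB (difference 1.49 ± 0.27, adjusted p = 0.0273), lost without WT mouse 2, WT mouse 3, KO mouse 1 or KO mouse 2. The difference of its other probe set was 0.73 and did not pass. Without both mice numbered 1 the differences of Tafa2, Fabp1, Fabp6, Defb19, Gcg, Ankrd44 and Ddc were lost too.

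**Figure D5:**
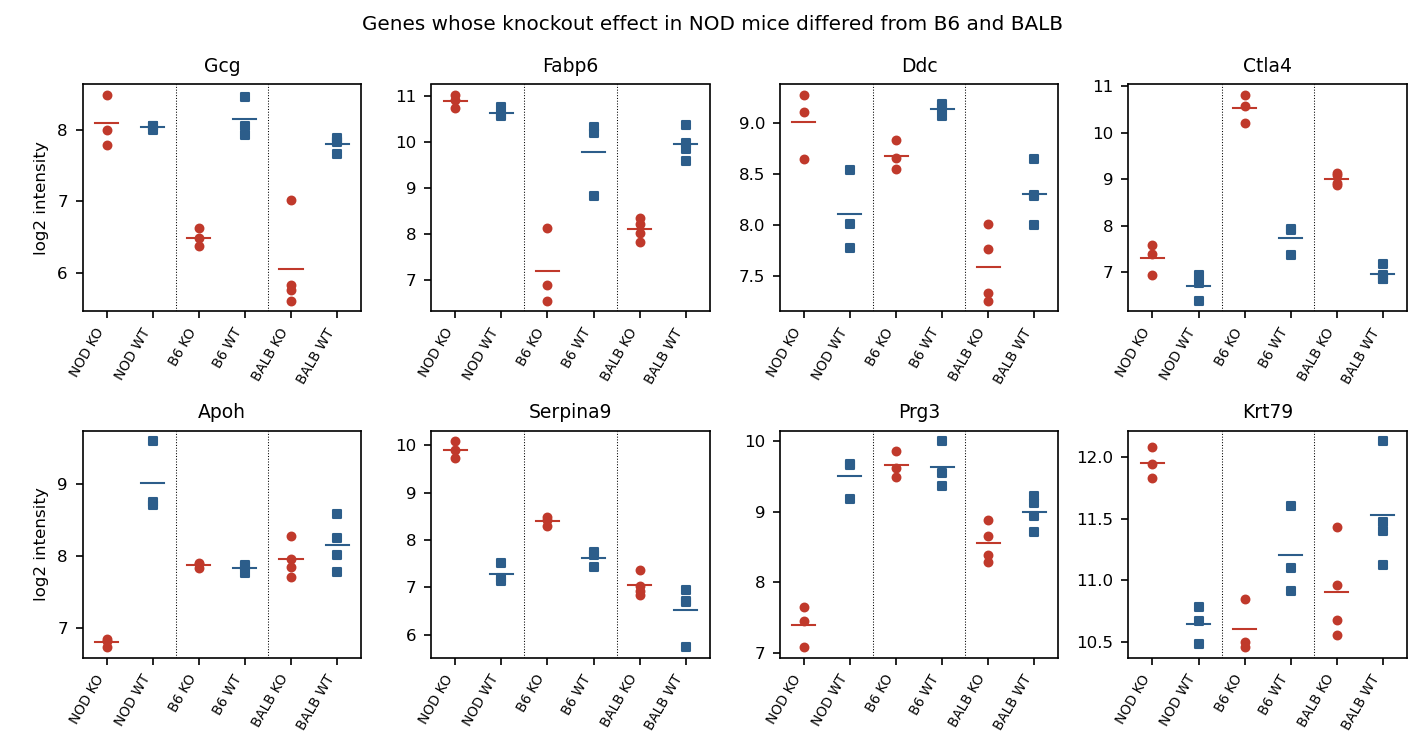
Log2 intensity of Gcg, Fabp6, Ddc, Ctla4, Apoh, Serpina9, Prg3 and Krt79 in each mouse of the NOD, B6 and BALB groups, KO beside WT, with bars at group means. The NOD KO mice of Apoh (mean 6.80) lie below all other groups, and those of Serpina9 (mean 9.91) above them.

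For the insulin gene itself the difference between the strains did not pass. Ins2 averaged 6.89 ± 0.19 in KO and 7.62 ± 0.25 in WT NOD mice, against 6.94 ± 0.11 and 8.51 ± 0.18 in B6 and 6.77 ± 0.22 and 7.92 ± 0.34 in BALB. The 3 KO levels lay within their spread, and the effects of -0.72 in NOD, -1.57 in B6 and -1.14 in BALB gave a difference of 0.64 ± 0.22 (adjusted p = 0.720). Umod, with effects of -1.73, -2.71 and -4.10, gave a difference of 1.67 ± 0.47 that did not pass either (0.353).

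The falls were spread over a wide range of signal. With genes ranked by mean level into 5 groups of equal size, 0.879% of the dimmest group fell at least 2-fold in NOD, followed by 1.84%, 4.04%, 4.23% and 2.67% in the brightest. The shares that rose at least 2-fold were 0.192%, 0.632%, 0.687%, 1.13% and 0.824% from dim to bright.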

How the data were processed

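The values are linear intensities, 1 for each array and probe set, which the authors made with RMA, per the submitters' processing notes (version not stated there). Medians of the NOD arrays were 89.3 to 90.9. RMA usually quantile-normalizes a set of arrays, so that array-wide shifts are removed. Which arrays formed that set is not stated, no detection calls were used, and the number of arrays limits the precision.

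Of 45101 probe sets, 64 controls were left out and log2 was taken. In the platform annotation 34945 of the rest had 1 gene symbol and 932 had several, and 9160 were not listed and have no name here. For a gene with several probe sets, the one brightest on average over all 20 arrays was used. The 6 group means were fitted with limma 3.58.1 (R 4.3.3; lmFit, then eBayes), leaving 14 residual degrees of freedom, with Benjamini-Hochberg adjustment over 45037 probe sets and a threshold of 0.05. Contrasts were KO minus WT in NOD, and that effect minus the mean of the B6 and BALB effects. The code was tested on simulated data.

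Named genes are Aire, the 14 that fell most and the 8 that rose most without overlap between genotypes, the 6 largest strain differences each way, up to 4 members per list that passed, known autoantigens of Aire-deficient NOD mice, and checks of strain and cell type. Other members named, such as Chga, Ager, Des, Csf1r, Csn2, Fabp1, Ddc, Sst and Apob, were chosen after their values were seen. Members and lists (38, with 506 of 548 entries measured and 19 genes in more than 1 list) were chosen with earlier results of these data known. Listed genes that no probe set names alone, such as Ins1, were not analysed here.

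Same-numbered NOD mice deviated together in all 3 pairs (r above 0.1), against -0.596 to 0.0335 for mice of different numbers. Deviations from a group mean cancel within a genotype, so high values for same numbers lower the others, which are no separate support for pairing. The main fit held no pairs, and the numbers were taken as pairs only in the alternative fits called paired. The labels do not say what a number marks. Promoters, gene names and gene order came from RefSeq tables of GRCm38.p6. Alternatives covered scaling, dim probe sets, the variance model, array weights, the replicate block, the arrays fitted, fold limits, other probe sets and leaving out each mouse.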

Additional observations from a re-analysis of the deposited data

Results flagged for a closer look

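The KO minus WT effect in NOD differed from the mean effect in B6 and BALB, by the test of the difference itself (limma, adjusted p under 0.05), in 14 of the genes named above. The effect was more negative in NOD by -2.59 for 1700110I01Rik, -2.14 for Apoh, -2.08 for Krt20, -1.95 for Tafa2, -1.89 for Prg3, -1.80 for Ctla4 and -1.71 for Fabp1. It was more positive in NOD by 2.47 for Fabp6, 2.11 for Defb19, 1.96 for Serpina9, 1.91 for Krt79, 1.86 for Ankrd44, 1.76 for Gcg and 1.49 for Ddc. Ctla4 stood out through a rise in B6 and BALB, and Fabp6, Gcg and Defb19 through falls there. Of the 13 alternatives run for each of these differences (12 for Defb19), those of 1700110I01Rik, Apoh, Prg3, Ctla4 and Serpina9 passed in all.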

How the results depend on the processing

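The 746 probe sets that fell at least 2-fold numbered 556 to 932 over all alternatives, and the 14 largest falls passed in each that held them (Il31 and BC080696 are not in the fit without dim probe sets). Against 1903 calls, 1264 lower and 639 higher, array weights gave 6795, 3405 and 3390, with WT mouse 2 weighted at 4.40 and the other NOD mice at 0.767 to 1.93. The run of sample codes as a block on the 6 NOD arrays gave 3855, 2338 and 1517. The replicate block gave 2974 and 1113 higher, and on the 6 NOD arrays alone 6299, 3557 and 2742. Of 487 listed genes it lost 2 calls, Chga and Cartpt (adjusted p = 0.0549), and added 25, and beyond these and Aire it changed no other call of a named gene. Of strain differences it lost that of Fabp6 and added those of Csn3 (adjusted p = 0.0365) and 4933436H12Rik (0.0301). A 2-fold limit left 954. Leaving out 1 mouse gave 1180 to 2034 calls, 301 to 754 higher, 119 to 346 at least 2-fold higher (316 with array weights) and 23 to 51 strain differences. Strain differences numbered 613 with array weights, 136 with the replicate block and 23 without both mice numbered 1, an alternative chosen after seeing the data. The cause of these shifts was not tested. Fitted on the 6 NOD arrays alone 2039 probe sets passed, sharing 1428 of the 1903, and the calls of Ins2, Ptprn2, Bpifa1, Scgb1a1, Lor, H2-Ob, Gbp3, Dcn, Chga, Ddc and Ankrd44 were lost. A trend and robust variance lost Ptprn2 and Chga, and median centring the strain difference of Fabp1 (adjusted p = 0.0575). Lower calls made up 66.4% of the total, 50.1% with array weights and 63.0% and 65.1% under the other scalings. Signs turned only in small values: Rbp3 (0.0143 with array weights, 0.0137 without both mice numbered 1, -0.113 to 0.0412 without single mice), Pdia2 (-0.0107, and -0.0123 to 0.0724), Itgax (-0.58 to 0.21), Ptprc (-1.42 to 0.0284), Psmb11 (-0.45 to 0.15) and Gcg (-0.15 to 0.21). Other probe sets turned the sign of Apoh (0.12), Csn1s2a (0.11), Gad2 (-0.00567), H2-Ea (0.24 and 0.0441), Lor (0.0753), Lrmda (-0.22), Nnt (0.11), Prph (0.0199, 0.27 and 0.25), Rbp3 (0.0497), Sftpc (0.0794), Slc4a1 (0.24), Svs2 (-1.11) and Tac1 (0.12). Of 60 other probe sets of named genes that passed, 29 passed with the same sign, 0 with the opposite sign, and 10 that did not pass had the opposite sign. Depth is unknown for array intensities without detection calls, so no gene can be called undetected.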

Other observations

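Further genes among the 42 whose effect differed between NOD and the other strains are named here after their values were seen. Rsph1, of the ciliary radial spoke, had effects of -1.09 in NOD, -1.70 in B6 and -3.01 in BALB (difference 1.26 ± 0.24, limma, adjusted p = 0.0493). Cfap69, of the ciliary axoneme, had effects of -1.40, -2.32 and -3.17 in the same order (difference 1.35 ± 0.23, adjusted p = 0.0232), and Ccdc153 of -0.60, -1.60 and -2.02 (difference 1.21 ± 0.21, adjusted p = 0.0192). The NOD fall passed for Rsph1 and Cfap69 and did not for Ccdc153 (adjusted p = 0.0573). Other genes of the 42 with a more positive effect in NOD included the Notch ligand Jag1 (0.65 in NOD, -0.59 in B6, -0.41 in BALB), the transcription factor Gata3 (0.41, -0.38 and -0.20) and the gut lectin Itln1 (0.90, -0.13 and -0.69). Those with a more negative effect included the serotonin receptor Htr2c (-0.90, 0.30 and 0.79), the ion channel Pkd2l1 (-0.82, 0.30 and 0.15) and the phosphatase Dusp15, which did not pass in NOD (-0.04, against 1.75 in B6 and 1.72 in BALB).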
